A study of Mus musculus with 35 samples.

Results

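Ezh2, Setd1a, Sirt7 and Asxl2 encode 4 proteins that write, remove or help to remove marks on histones, and they were followed here through tumor growth and early ganglion development in the TH-MYCN mouse model of neuroblastoma. Every probe whose deposited gene symbol, current or older, is one of these genes was kept, which gave 5 probes for 4 of the 7804 genes named on the 12688 probes of the authors' normalized table. Ezh2 (probe 658612), Setd1a (probe 535199) and Sirt7 (probe 797234) had 1 probe each, and Asxl2 had 2 (540321 and 801339). The genes were selected on measured values of these same arrays: Sirt7 and Setd1a are known to have been picked for their higher level in large than in small tumors, and the comparison behind Ezh2 and Asxl2 is not recorded. Ezh2 and Asxl2 are therefore given as sizes with their errors and no p-value throughout. The same holds for Sirt7 and Setd1a where the small or large tumors of the first set enter. The name Setd1a rests on a synonym, since its probe carries the symbol Nsccn1 (non-selective cation channel 1), which RefSeq lists under Setd1a. Both Asxl2 probes carry 4930556B16Rik, also a RefSeq synonym, and the target regions of the probes were not analysed here.

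All mice were homozygous for the TH-MYCN transgene, in which the tyrosine hydroxylase promoter drives human MYCN in cells of the sympathetic lineage, so no group lacks the transgene. The first set held 24 tumors in 4 size classes of 6, taken from mice followed by ultrasound after weaning. Small tumors weighed 0.05 to 0.1 g and came from mice aged 28 to 42 days, medium tumors 0.24 to 0.46 g at 35 to 42 days, large tumors 0.76 to 1.3 g at 35 to 46 days, and very large tumors 1.6 to 3 g at 35 to 45 days. The second set held 11 arrays. Of these, 2 were small tumors of 0.08 and 0.1 g, from mice aged 42 and 28 days. The others were hyperplastic sympathetic ganglia, which hold clusters of neuroblasts, from day 0 (n = 5), day 7 (n = 2) and day 14 (n = 2) of life. Tissue and age thus differ together between tumors and ganglia, and their parts cannot be told apart. The 2 tumors bear the specimen names of small tumors 6 and 3 of the first set, so they are repeat arrays and not new tumors. Their first-set arrays helped to choose Sirt7 and Setd1a. The p-values of these 2 genes in tumors against ganglia therefore do not rest on specimens apart from that choice. RNA came from frozen sections and was read on single-colour arrays. Titles name separate specimens, but the labels do not say whether 2 specimens ever came from 1 animal. All 7 sympathetic neuroblast markers reported (among them Th and Dbh) were measured, and none was at the lower limit of the scale on every array of any group.

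Polycomb and Trithorax proteins hold genes in silent or active states by marking histones. Ezh2 is the catalytic subunit of Polycomb repressive complex 2 (PRC2), which methylates lysine 27 of histone H3, and in many dividing cells its gene is driven by E2F factors. Setd1a is a catalytic subunit of a SET1/COMPASS complex, which methylates lysine 4 of histone H3 at active promoters. Sirt7 is a nucleolar, NAD-dependent deacylase linked to transcription of ribosomal RNA genes. Asxl2 is a partner of the deubiquitinase Bap1 in the complex called PR-DUB, which takes ubiquitin off histone H2A. EZH2 has been described as a silencer of differentiation genes in human neuroblastoma.

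The promoter letters of all 4 genes are shown so that they can be set beside the levels below. They come from RefSeq (GRCm38.p6), 5′ to 3′ on the strand of the gene, and cover the 250 bases before the start that the RefSeq promoter table uses. That start is the outer end of the gene body for Setd1a, Sirt7 and Asxl2, but lies 240 bases inside it for Ezh2, so most of the Ezh2 stretch is within the annotated gene. Capitals mark matches on either strand to 4 motifs: E2F (TTTGGCGC, TTTCCCGC, TTTGCCGC or TTTCGCGC), the E-box CACGTG, the CCAAT box CCAAT and the ETS word CCGGAAG. The gene bodies lie at chr6:47530274-47595270 for Ezh2, chr7:127777389-127800122 for Setd1a, chr11:120618371-120625014 for Sirt7 and chr12:3426857-3510811 for Asxl2.
Ezh2, chr6:47595031-47595280, minus strand: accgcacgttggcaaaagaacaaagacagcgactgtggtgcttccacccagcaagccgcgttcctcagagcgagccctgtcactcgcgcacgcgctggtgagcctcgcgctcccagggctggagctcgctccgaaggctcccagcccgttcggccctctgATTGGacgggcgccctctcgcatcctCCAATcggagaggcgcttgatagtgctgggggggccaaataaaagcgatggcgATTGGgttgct
Setd1a, chr7:127777139-127777388, plus strand: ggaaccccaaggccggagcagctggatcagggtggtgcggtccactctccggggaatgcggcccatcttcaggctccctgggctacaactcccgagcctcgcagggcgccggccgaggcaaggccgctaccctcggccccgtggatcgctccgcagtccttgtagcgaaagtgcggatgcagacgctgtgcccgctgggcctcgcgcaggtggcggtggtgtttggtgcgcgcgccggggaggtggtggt
Sirt7, chr11:120625015-120625264, minus strand: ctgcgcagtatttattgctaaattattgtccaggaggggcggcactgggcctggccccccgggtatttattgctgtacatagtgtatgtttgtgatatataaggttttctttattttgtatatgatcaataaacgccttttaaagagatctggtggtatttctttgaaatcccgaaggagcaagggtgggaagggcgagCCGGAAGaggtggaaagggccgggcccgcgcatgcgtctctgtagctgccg
Asxl2, chr12:3426607-3426856, plus strand: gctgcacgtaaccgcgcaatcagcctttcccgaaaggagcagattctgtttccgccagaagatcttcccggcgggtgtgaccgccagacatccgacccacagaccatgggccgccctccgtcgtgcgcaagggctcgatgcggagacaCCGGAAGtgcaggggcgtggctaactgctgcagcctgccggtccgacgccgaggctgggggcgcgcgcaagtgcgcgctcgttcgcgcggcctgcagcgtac

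Both the motifs and the window were chosen after these letters had been seen, and 2 windows were searched. In the 250 bases before the start used, Ezh2 held 3 CCAAT matches, Sirt7 and Asxl2 held 1 CCGGAAG match each, and Setd1a held no match; no member held an E2F word or an E-box there. When the first 50 transcribed bases were added, 3 further matches appeared, each shown with its surroundings.
Ezh2, E2F word, chr6:47595007-47595030: gcgTTTGGCGCtcggtccggtcgc
Sirt7, ETS word, chr11:120624981-120625004: aagcggaagCCGGAAGcgcagtca
Asxl2, E-box, chr12:3426874-3426897: ggcaggggtCACGTGaccacagaa
Of 32851 RefSeq promoters, 1.86% held an E2F word, 6.021% an E-box, 33.85% a CCAAT box and 6.907% the ETS word in the upstream window. In the longer window the shares were 2.265%, 7.15%, 37.41% and 8.858%, in the same order of motifs. No motif match overlapped another. A match describes letters and not a bound factor.

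Across tumor sizes, the class means of Ezh2 lay within 0.37 of each other. On the log2 scale of quantile-normalized intensity, its lowest, median and highest values were 15.14, 15.47 and 15.60 in small tumors, 15.46, 15.83 and 16.05 in medium tumors, 15.50, 15.56 and 15.90 in large tumors, and 15.49, 15.77 and 16.14 in very large tumors. All classes overlapped. The means differed from small tumors by 0.33 in medium (SE 0.12), 0.22 in large (SE 0.12) and 0.37 in very large tumors (SE 0.12). Very large minus medium tumors, a comparison without the small class, gave 0.03 (SE 0.12, 95% interval -0.22 to 0.28).

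The class means of Setd1a were ordered by size, while its medium and large medians were nearly level. Its lowest, median and highest log2 levels were 10.998, 11.48 and 12.03 in small tumors, 11.96, 12.39 and 12.92 in medium tumors, 12.06, 12.37 and 13.01 in large tumors, and 12.31, 12.82 and 13.01 in very large tumors. Every large and every very large tumor lay above all 6 small tumors, while medium and small tumors overlapped. The difference from small tumors was 0.85 in medium, 0.91 in large and 1.19 in very large tumors (SE 0.21 each), which for very large tumors is 2.28-fold. Among the larger classes the order did not pass a test: very large minus medium tumors gave 0.34 (SE 0.21, limma adjusted p = 0.889).

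Sirt7 was highest in large tumors and lower again in very large ones. Its lowest, median and highest log2 levels were 10.26, 11.05 and 11.49 in small tumors, 11.17, 11.82 and 12.57 in medium tumors, 11.61, 11.77 and 13.23 in large tumors, and 11.05, 11.80 and 12.25 in very large tumors. The 6 large tumors all lay above the 6 small ones, but 2 of them, large tumors 1 and 4 at 13.23 and 12.79, stood well above the other four, which lay between 11.61 and 11.84. Medians of the medium, large and very large classes lay within 0.1 of each other. The difference from small tumors was 0.89 in medium (SE 0.30), 1.18 in large (SE 0.30, 2.27-fold) and 0.72 in very large tumors (SE 0.30). Without large tumor 1 the large-minus-small difference was 0.97, and without large tumor 4 it was 1.05. Very large minus medium tumors gave -0.16 (SE 0.30, limma adjusted p = 0.975).

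The 2 Asxl2 probes went opposite ways over the same tumors. Probe 540321 had lowest, median and highest log2 levels of 11.91, 12.69 and 12.82 in small tumors, 12.73, 12.97 and 13.23 in medium tumors, 12.19, 13.02 and 13.30 in large tumors, and 12.83, 13.24 and 13.42 in very large tumors. Probe 801339 had 16.27, 16.41 and 16.47 in small tumors, 15.89, 16.29 and 16.39 in medium tumors, 16.02, 16.25 and 16.60 in large tumors, and 15.82, 16.14 and 16.29 in very large tumors. Very large minus small tumors was 0.71 (SE 0.18) by probe 540321, with no overlap, and -0.29 (SE 0.10) by probe 801339, with overlap. Over the 24 tumors the Pearson correlation of the 2 probes was -0.61, and over the 11 arrays of the second set it was -0.45; arrays share normalization and sections of mixed makeup. A direction for Asxl2 as a gene therefore depends on the probe.

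**Figure D1:**
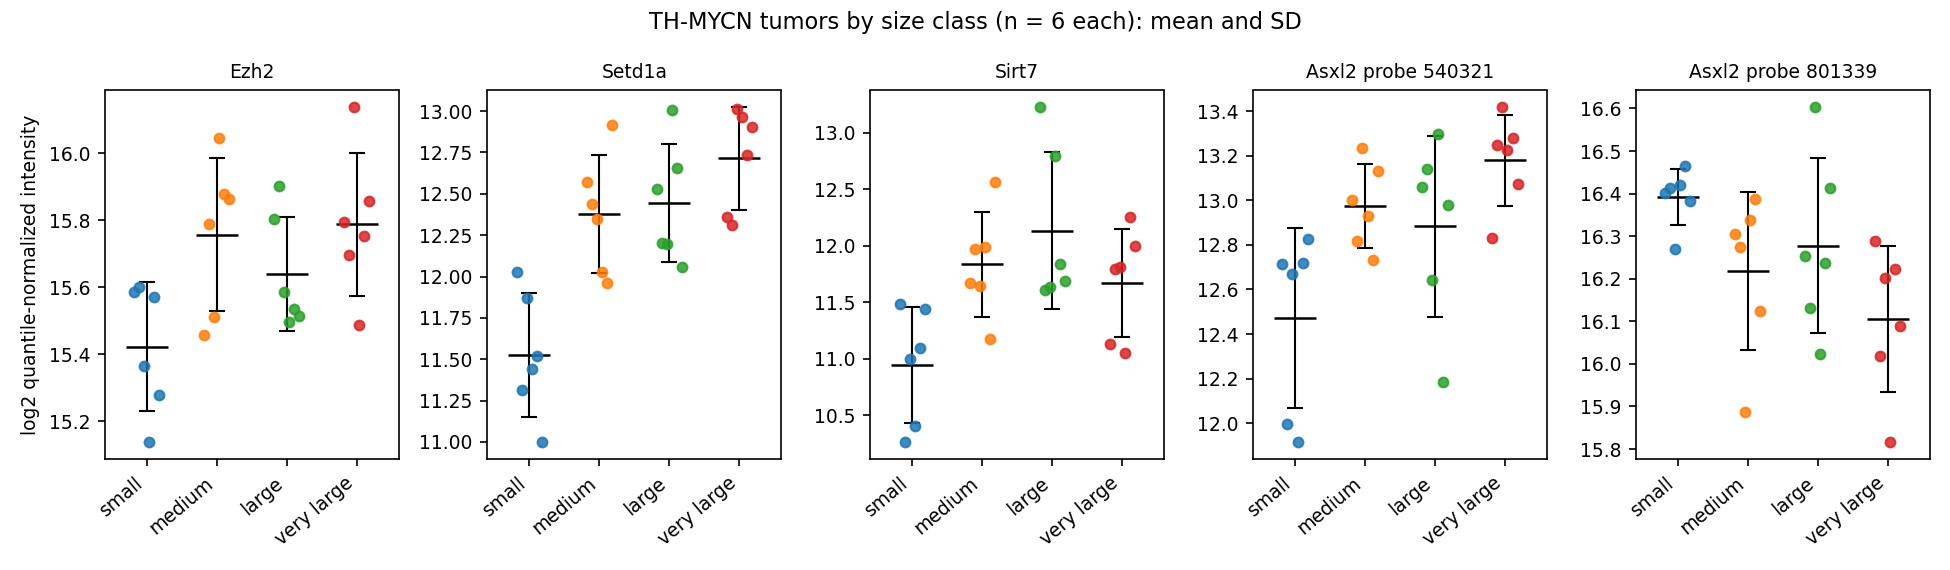
Log2 quantile-normalized intensity (vertical axes, one scale per panel) of each probe in 6 tumors per size class (horizontal axis); points are tumors, long bars means and whiskers SD. Setd1a means run 11.53, 12.38, 12.44 and 12.71 over the classes, Ezh2 stays between 15.42 and 15.79, and the Asxl2 panels slope in opposite directions.

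By limma with Benjamini-Hochberg adjustment over 32996 probes, 1 of 5 member probes was called higher in medium than in small tumors, where 0.961% of all probes were called. In large against small tumors 2 of 5 were called higher and 2.31% of all probes were called, and in very large against small tumors 2 of 5 were called higher and 4.69% of all probes. Nothing is read from these counts, since the small and large tumors helped to choose Sirt7 and Setd1a. The comparison behind the other members is not recorded. Single tumors decided several of these calls: Sirt7 in large tumors lost it without small tumor 2, 3 or 4 or without large tumor 1 or 4 (0.97 to 1.19). Setd1a in medium tumors lost it without small tumor 2, 4, 5 or 6 or without medium tumor 1, 2, 3 or 6 (0.74 to 0.85). Asxl2 probe 540321 in very large tumors lost it without small tumor 2 or 4 or without very large tumor 3 or 5 (0.59 to 0.69), and with arrays centred on medians its difference was 0.44. In very large against medium tumors 0 of 5 were called (0% of all probes), and likewise 0 of 5 for the slope on tumor weight among the 18 tumors above the small class (0% of all probes). At an unadjusted p under 0.05 the members numbered 0 in both, against 1857 and 1957 of all probes. The slope per 10-fold weight was 0.32 for Setd1a (SE 0.25) and -0.28 for Sirt7 (SE 0.37). No p is given for the slope, since the large tumors among the 18 also helped to choose these 2 genes. For the same reason nothing is read from the slope counts. For Setd1a the slope depended on scaling, at 0.064 with arrays centred on medians (SE 0.25) and -0.27 with no normalization (SE 0.44).

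Other tissue moved with the size classes. The 7 measured of 12 skeletal muscle markers were all called lower in large than in small tumors, and the log2 of their summed level ranged over 14.67 to 21.93 in small, 13.07 to 19.66 in medium, 12.56 to 18.90 in large and 13.17 to 20.04 in very large tumors. Of 10 measured fat markers of 12, 7 were called lower in large tumors, as were 2 of 7 Schwann cell and 4 of 9 fibroblast markers. Of all probes 2.31% were called there. Of 5 measured endothelial and 6 measured myeloid markers 0 were called, and of 7 neuroblast markers 1 was called higher and 1 lower. Fat markers had summed log2 levels of 17.99 to 21.77 in small, 16.49 to 18.85 in medium, 16.56 to 18.91 in large and 17.38 to 18.91 in very large tumors. With muscle and fat levels as covariates, large minus small tumors became 0.45 for Setd1a (SE 0.34) and 1.32 for Sirt7 (SE 0.51). With life span as a covariate these differences were 0.87 (SE 0.26) and 0.61 (SE 0.32), and no member was called in large against small tumors under either covariate set. In such bulk sections, fewer cells of a type and less RNA per cell cannot be told apart.

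In the second set Ezh2 stood far higher in small tumors than in ganglia of any age. Its log2 levels, on the authors' normalized scale, were 17.92 and 17.9998 in the small tumors, against 14.90, 15.77, 15.67, 15.49 and 15.51 at day 0, 15.77 and 16.01 at day 7, and 14.89 and 14.88 at day 14. No ganglion came within 1.9 of a tumor. Small tumors minus day 0 ganglia was 2.49 (SE 0.22, 5.63-fold), minus day 7 ganglia 2.07 (SE 0.27, 4.19-fold) and minus day 14 ganglia 3.08 (SE 0.27, 8.43-fold).

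Within the ganglia, Ezh2 was lowest at day 14 and highest at day 7. Day 14 minus day 7 was -1.01 (SE 0.27), day 14 minus day 0 was -0.58 (SE 0.22) and day 7 minus day 0 was 0.43 (SE 0.22). No difference was called. The stages did not overlap, but by narrow margins: day 0 ganglion 2, at 15.7696, lay just under day 7 ganglion 1, at 15.7744. How many of all probes keep the stages apart was not counted, and nothing is read from the separation. Day 0 ganglion 1, at 14.90, lay near the day 14 values, and without it day 14 minus day 0 was -0.72 and was called. By specimen name day 0 ganglia 1 and 2 form a series apart from day 0 ganglia 3 to 5. Without both, day 14 minus day 0 was -0.67 and was called. Day 14 minus day 7 was then called too, at an unchanged -1.01, since leaving out day 0 arrays alters only the spread the groups share. Nothing is read from these Ezh2 calls.

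Setd1a was also higher in small tumors than in ganglia, with a wide spread among the ganglia. Its log2 levels were 13.89 and 13.89 in the small tumors, against 13.44, 13.49, 12.70, 12.03 and 12.06 at day 0, 12.11 and 12.83 at day 7, and 11.95 and 12.60 at day 14. Both tumors lay above all 9 ganglia, and day 0 ganglia 1 and 2 were the closest. Small tumors minus day 14 ganglia was 1.61 (SE 0.52, limma adjusted p = 0.0269), minus day 7 ganglia 1.42 (SE 0.52, limma adjusted p = 0.056) and minus day 0 ganglia 1.15 (SE 0.44, limma adjusted p = 0.0573). Without day 0 ganglia 1 and 2 the day 0 difference was 1.63 (limma adjusted p = 0.00186), and without day 0 ganglion 1 or 2 alone it was 1.32 (limma adjusted p = 0.0263) or 1.33 (limma adjusted p = 0.0239). The day 14 call was lost without day 14 ganglion 1 (1.29, limma adjusted p = 0.171), without small tumor 1 (1.61, limma adjusted p = 0.107) or without small tumor 2 (1.62, limma adjusted p = 0.103). Between ganglion stages, differences ran from -0.47 to -0.20 and none passed the test; the 2 differences from day 0 changed sign when day 0 ganglia 1 and 2 were left out (0.21 for day 7 and 0.01 for day 14, each minus day 0).

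Sirt7 was higher in the small tumors than in the ganglia. Its log2 levels were 13.91 and 13.69 in the small tumors, against 13.03, 13.08, 12.94, 12.65 and 12.72 at day 0, 12.52 and 13.32 at day 7, and 12.44 and 13.17 at day 14. Both tumors lay above all ganglia. Small tumors minus day 0 ganglia was 0.91 (SE 0.30, limma adjusted p = 0.0296), minus day 14 ganglia 1.00 (SE 0.36, limma adjusted p = 0.0427) and minus day 7 ganglia 0.88 (SE 0.36, limma adjusted p = 0.0804). The day 0 call was lost without small tumor 1 (0.81, limma adjusted p = 0.202) or small tumor 2 (1.02, limma adjusted p = 0.104), and also with quantile normalization over all probes (1.01, limma adjusted p = 0.0636). The day 14 call was lost without either tumor too (0.89 and 1.10) and without day 14 ganglion 1 (0.63, limma adjusted p = 0.309), while without day 7 ganglion 2 the day 7 difference was 1.28 (limma adjusted p = 0.0454). Between ganglion stages the Sirt7 differences were -0.12 to 0.03 (SE 0.30 to 0.36), and none passed the test.

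The Asxl2 probes were again opposed between tumors and ganglia. Probe 540321 had log2 levels of 15.43 and 15.29 in the small tumors, against 14.73, 14.63, 14.25, 14.34 and 13.79 at day 0, 14.89 and 14.81 at day 7, and 14.44 and 14.64 at day 14. Probe 801339 had 17.27 and 17.28 in the small tumors, against 18.11, 18.32, 17.95, 18.10 and 17.83 at day 0, 18.42 and 18.002 at day 7, and 17.87 and 17.92 at day 14. Tumors lay above every ganglion by the dimmer probe and below every ganglion by the brighter one. Small tumors minus day 0, day 7 and day 14 ganglia were 1.01, 0.51 and 0.82 by probe 540321 (SE 0.25, 0.30 and 0.30) and -0.79, -0.93 and -0.62 by probe 801339 (SE 0.17, 0.20 and 0.20). Between stages neither probe was called. Without day 0 ganglia 1 and 2, day 7 minus day 0 for probe 540321 was 0.73 and was called, against 0.51 with all 5. Nothing is read from these Asxl2 calls.

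**Figure D2:**
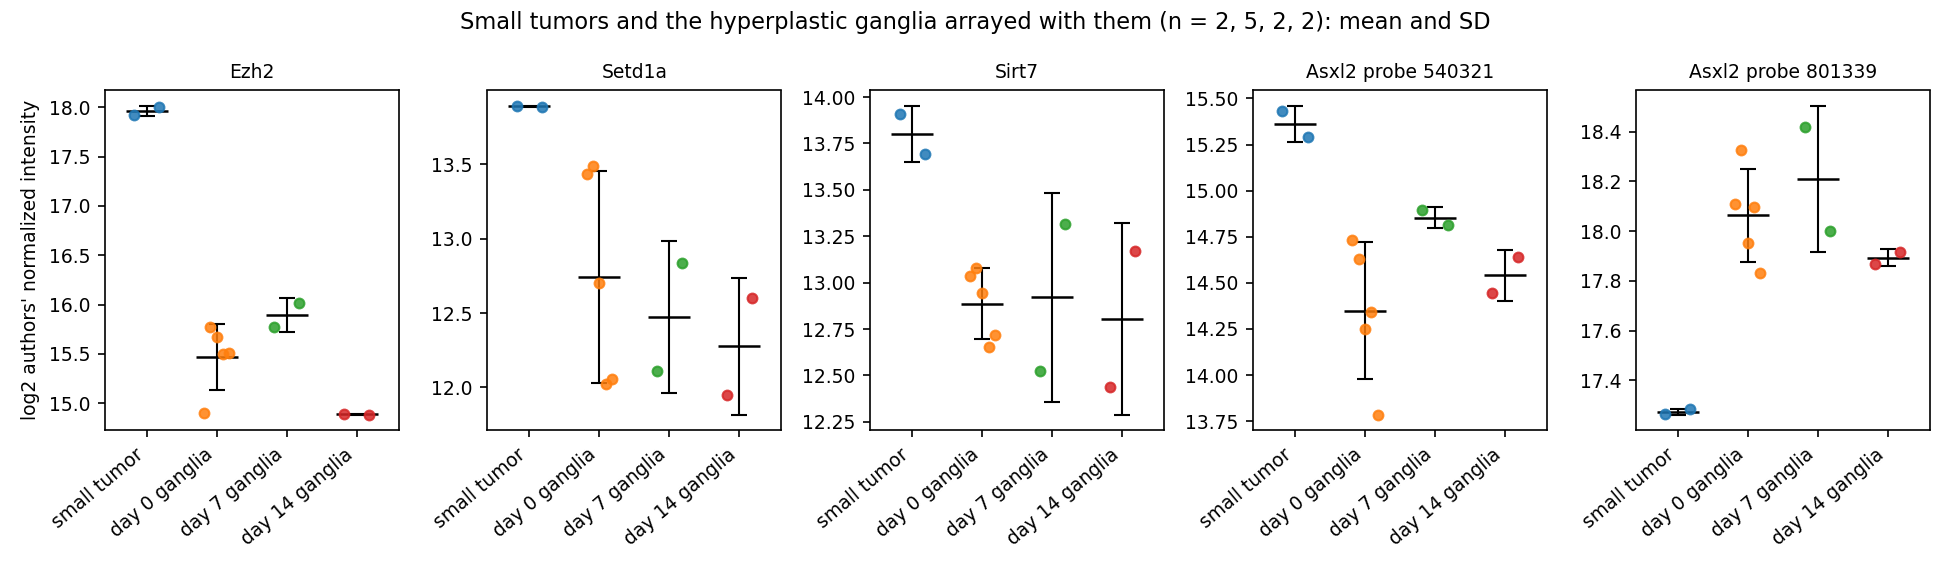
Log2 of the authors' normalized intensity (vertical axes, one scale per panel) of each probe in small tumors (n = 2) and in day 0 (n = 5), day 7 (n = 2) and day 14 ganglia (n = 2); points are arrays, long bars means and whiskers SD. Tumors lie above every ganglion in 4 panels and below every ganglion for Asxl2 probe 801339. How many of all probes separate in this way was not counted. Between tumors and ganglia 32.2% to 39.7% of all probes were called.

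Of the 5 member probes, 3 were called higher and 1 lower in small tumors than in day 0 ganglia, where 37.3% of 12688 probes were called. Against day 7 ganglia 1 was called higher and 1 lower, with 32.2% of all probes called, and against day 14 ganglia 4 were called higher and 1 lower, with 39.7% called. These 3 comparisons share the same 2 tumors. Asxl2 probe 540321 lost its call against day 0 ganglia without small tumor 1 (0.95), both Asxl2 probes lost theirs against day 14 ganglia without any 1 of those 4 arrays (0.72 to 0.92 and -0.64 to -0.59), and probe 801339 lost its call against day 7 ganglia without day 7 ganglion 1 (-0.73). Between ganglion stages 0 of 5 were called by limma in each comparison: day 7 against day 0 (1.99% of all probes called), day 14 against day 0 (10.2%) and day 14 against day 7 (0.465%). At an unadjusted p under 0.05 the members numbered 0, 1 and 1 there, against 2457, 3260 and 1701 of all 12688 probes. Since the 1 was Ezh2 both times, nothing is read from these member numbers either. Nothing is read from the Ezh2 and Asxl2 calls in these counts, since the comparison behind the choice of these genes is not recorded.

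Markers of neuroblasts and of other tissue also differed here. In small tumors against day 0 ganglia, 6 of 7 measured muscle markers were called higher and 1 lower, and 9 of 10 fat and 4 of 6 myeloid markers were called higher. Of the others, 4 of 7 Schwann cell, 7 of 9 fibroblast and 6 of 7 neuroblast markers were called lower, and 0 of 5 endothelial markers were called. Of all probes 37.3% were called there. The summed log2 level of muscle markers was 21.76 and 21.84 in the tumors and 19.75 to 20.54 at day 0, and that of fat markers was 22.48 and 22.66 in the tumors and 18.36 to 19.54 at day 0. Their part in the member differences was not tested in this set.

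**Figure D3:**
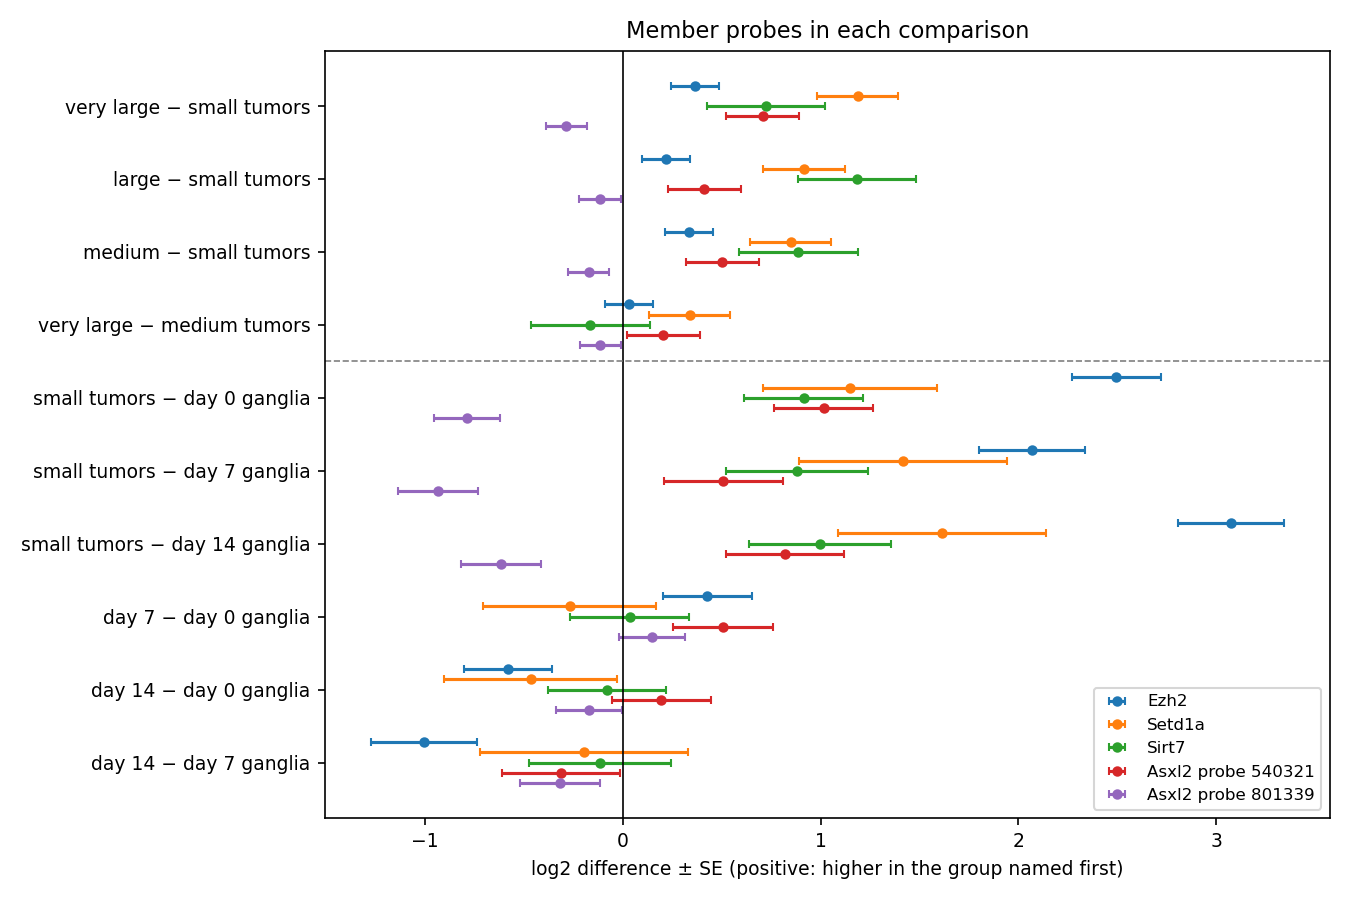
Log2 difference (horizontal axis) with SE of each probe in 10 comparisons (rows; the group named first minus the second), with tumor sizes above the dashed line and ganglia and the tumors arrayed with them below it. Ezh2 lies at 2.07 to 3.08 in the 3 tumor-minus-ganglia rows and at 0.37 or less between tumor sizes.

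The 2 tumors arrayed in both sets gave different readings. Without normalization, Ezh2 was 14.9 and 13.8 times the array median on the second set's arrays, against 3.58 and 3.93 times on the first set's arrays of the same specimens. That is a 4.17- and 3.53-fold gap, at percentiles 92.5 and 91.3 of all shared probes. The gap was 4.16- and 2.25-fold for Setd1a, 3.05- and 3.70-fold for Sirt7, 3.54- and 3.40-fold for Asxl2 probe 540321, and 1.19- and 1.11-fold for Asxl2 probe 801339. Levels of one set are for this reason not set against those of the other. Of the 5 probes, 4 read higher on the second set's arrays of the same tumors by more than 2-fold. Their percentiles among all shared probes ran from 77.1 to 92.5, and those of Asxl2 probe 801339 were 45.0 and 42.8. The share of all probes with a gap above 2-fold was not counted.

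**Figure D4:**
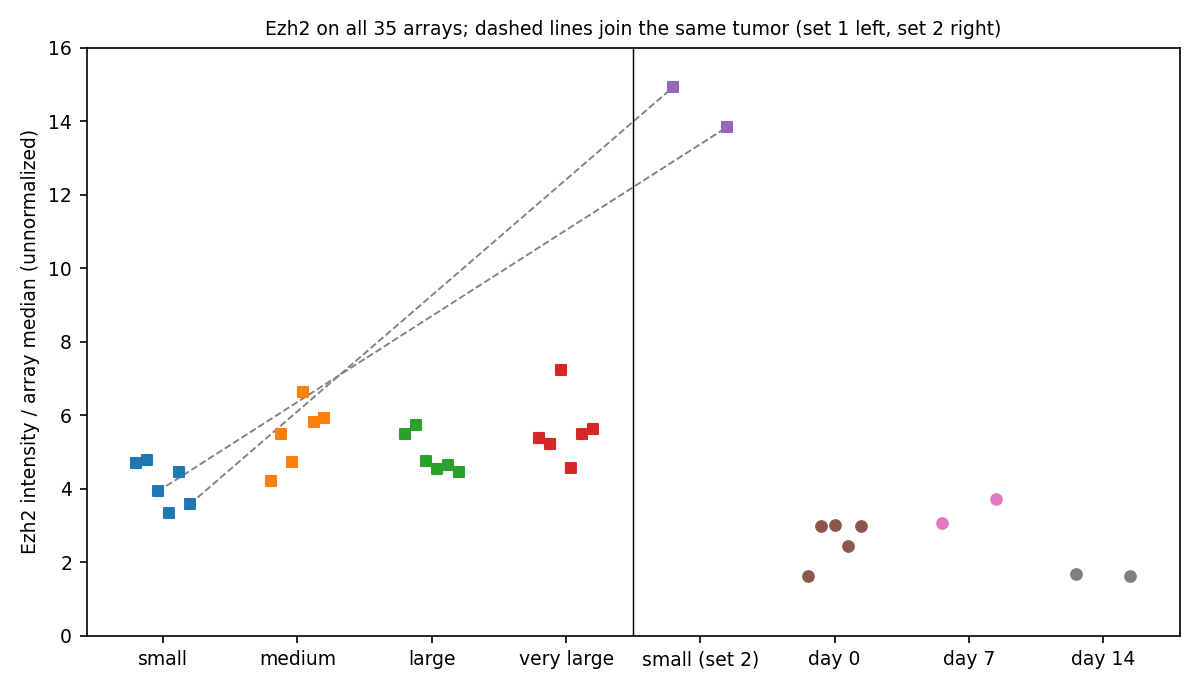
Unnormalized Ezh2 intensity over the array's median (vertical axis) on all 35 arrays, by group (horizontal axis; squares tumors, circles ganglia, first set left of the line). Dashed lines join the 2 tumors arrayed in both sets, at 14.9 and 13.8 in the second set and 3.58 and 3.93 in the first.

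The complexes around the members were described from gene lists, with 1 probe per gene, the brightest. Where a list holds a member, the counts include it, and nothing is read from the calls of Ezh2 and Asxl2. Of 13 PRC2 genes 8 were measured. Between tumor sizes 0 of 8 passed limma's test in any comparison with small tumors, where 0.961%, 2.31% and 4.69% of all probes did. At an unadjusted p under 0.05 the list had 2, 3 and 4 genes in medium, large and very large tumors. All probes there numbered 3553, 4774 and 5903 of 32996. In small tumors against day 0 ganglia 4 of 8 rose and 0 fell, where 37.3% of all probes were called, with a list median of 0.77 beside 0.01 for all probes. Besides Ezh2, these were Jarid2, a PRC2 cofactor (1.97, SE 0.37), Mtf2, which helps PRC2 reach CpG-rich DNA (0.82, SE 0.17), and Eed, which binds the methyl mark (1.60, SE 0.56). Against day 7 and day 14 ganglia 5 of 8 rose each time, where 32.2% and 39.7% of all probes were called, among them Suz12, a core subunit, against day 14 (2.60, SE 0.84). Mtf2 fell at day 14 relative to day 0 (-0.87, SE 0.17, limma adjusted p = 0.00792) and to day 7 (-1.05, SE 0.20, limma adjusted p = 0.046). It was the 1 of 8 called each time, where 10.2% and 0.465% of all probes were called.

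Among 11 measured of 19 SET1/MLL genes, 4 rose and 0 fell in very large against small tumors, where 4.69% of all probes were called. Besides Setd1a, these 4 held its paralog Setd1b (0.46, SE 0.12), the cofactor Hcfc1 (0.44, SE 0.10) and the coactivator Ncoa6 (0.43, SE 0.10). In medium and in large against small tumors 1 of 11 rose, where 0.961% and 2.31% of all probes were called. It was Setd1a itself, which was chosen on large against small tumors. In small tumors against day 0, day 7 and day 14 ganglia 6 of 11 rose and 0 fell each time, where 37.3%, 32.2% and 39.7% of all probes were called, with list medians of 0.88, 0.91 and 0.72. Core subunits shared by the whole family were among them: Wdr5 (1.36, SE 0.27), Rbbp5 (1.09, SE 0.21) and Ash2l (0.92, SE 0.18) against day 0 ganglia.

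Of 7 sirtuin genes 6 were measured. Apart from Sirt7, which was chosen on that comparison, 0 were called by limma in large against small tumors, and 0 had an unadjusted p under 0.05. Of all probes 2.31% were called there, and 4774 of 32996 had such an unadjusted p. In small tumors against day 0 ganglia 2 rose and 2 fell, where 37.3% of all probes were called. Sirt7 and the mitochondrial Sirt5 (1.27, SE 0.24) rose, while the mainly cytoplasmic Sirt2 (-0.80, SE 0.21) and the mitochondrial Sirt3 (-0.63, SE 0.17) fell. Sirt3 rose at day 14 relative to day 0 (0.69, SE 0.17, limma adjusted p = 0.0225), as 1 of 6 measured, where 10.2% of all probes were called. Of 9 measured of 15 RNA polymerase I genes, 0 passed limma's test between tumor sizes against small tumors. Of all probes, 0.961%, 2.31% and 4.69% passed in medium, large and very large tumors. At an unadjusted p under 0.05 the list had 3, 2 and 3 genes there, against 3553, 4774 and 5903 of 32996 probes. Against day 0 ganglia 3 rose and 1 fell in small tumors, where 37.3% of all probes were called. Taf1a (1.06, SE 0.22) and the subunit gene Polr1c (1.07, SE 0.24) were among those higher, and Taf1d was lower (-1.77, SE 0.23).

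Of 7 measured of 11 PR-DUB genes, 2 rose in very large against small tumors, where 4.69% of all probes were called. These were Hcfc1 (0.44, SE 0.10), which the SET1/MLL list also holds, and Mbd6 (0.64, SE 0.17). In small tumors 0 of 7 rose and 1 fell against each ganglion stage. Of all probes 37.3%, 32.2% and 39.7% were called against day 0, day 7 and day 14 ganglia. The gene that fell was Asxl2 by its brighter probe. Of 10 measured of 21 PRC1 genes, 2 rose and 0 fell against day 0 ganglia, namely Pcgf6 (0.79, SE 0.24) and Cbx2 (0.80, SE 0.25), a share below the 37.3% of all probes called. Against day 7 ganglia 1 of 10 rose and 1 fell, with 32.2% of all probes called. Against day 14 ganglia 3 of 10 rose and 1 fell, with 39.7% called. The PRC1 gene that fell was Cbx8 (-1.05 and -1.12, SE 0.31 each). Of 4 measured of 9 H3K4 and H3K27 demethylase genes, 1 fell at day 14 relative to day 0, where 10.2% of all probes were called. It was Kdm5b, which removes methyl groups from lysine 4 (-0.74, SE 0.19, limma adjusted p = 0.0262).

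E2F-linked replication genes are given beside Ezh2. Of 16 measured of 28, 15 rose and 0 fell in small tumors against day 0 ganglia, with a list median of 3.18 beside 0.01 for all probes. Against day 7 and day 14 ganglia 13 and 14 rose. In these 3 comparisons 37.3%, 32.2% and 39.7% of all probes were called. At day 7 relative to day 0, 7 rose and 0 fell (list median 1.17), where 1.99% of all probes were called. They included the helicase subunit Mcm5 (1.91, SE 0.24) and the cyclin Ccne1 (1.61, SE 0.21). At day 14 relative to day 7, 0 rose and 2 fell (list median -1.07), Mcm4 (-0.95, SE 0.18) and Mcm5 (-1.52, SE 0.28), with 0.465% of all probes called. At day 14 relative to day 0, where Ezh2 was lower by the values above, 2 rose and 0 fell (list median 0.27). These were Ccne1 (1.27, SE 0.21) and E2f1 (1.76, SE 0.34), with 10.2% of all probes called. In large against small tumors 0 of 16 passed limma's test, where 2.31% of all probes did. At an unadjusted p under 0.05 there were 8 of 16, against 4774 of 32996 probes.

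The named genes most like Ezh2 in pattern over the 24 tumors were the helicase gene Blm (Pearson r = 0.88), the replication kinase activator Dbf4 (0.86) and the clamp loader subunit Rfc4 (0.83). Over the 11 arrays of the second set they were Dbf4 (0.99), Rcc2 (0.99) and Ctcf (0.98). Setd1a was most like Sart3 (0.87), Noc2l (0.87) and Dpp6 (0.85) over the tumors and Nop2 (0.93), Cbs (0.90) and Ncoa6 (0.90) over the second set. For Sirt7 they were 5330431K02Rik (0.81), Ssb (0.81) and Dido1 (0.81) over the tumors, and Gemin6 (0.93), Noc2l (0.93) and Scrib (0.92) over the second set. Asxl2 probe 540321 was most like Gpx2 (0.85), Hnrnpdl (0.84) and Tbpl1 (0.81) over the tumors and Mgl1 (0.96), Rpl11 (0.95) and Nudc (0.93) over the second set. Asxl2 probe 801339 was most like Slc39a10 (0.84), Tspan15 (0.84) and Ica1l (0.81) over the tumors, and Tbcb (0.96), Sdc3 (0.96) and the axon growth gene Gap43 (0.95) over the second set. These are descriptions over arrays that share groups and normalization.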

How the data were processed

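Array intensities were deposited by the authors as a series table of 33012 probes, not normalized between arrays (array medians 557.79 to 1292.165 in the first set and 655.665 to 1513.665 in the second), and as a table of 12688 probes for the second set whose 11 columns hold identical sorted intensities, as quantile normalization gives. The labels describe a standard ABI protocol with digoxigenin label; background steps: not given in the sources used here. The first set was quantile normalized over 32996 probes, 16 with missing values being left out; the second used the authors' table. Values were floored at the 1st percentile, taken to log2 and fitted with limma 3.58.1 in R 4.3.3 (lmFit, eBayes with an intensity trend), 1 model per set, with Benjamini-Hochberg adjustment over all probes and calls at 0.05. A 95% interval comes from the same fit. Every member probe is named; of each related list, genes called in a comparison, at most 4 by smallest p; and for each member probe and set the 3 genes with the highest r. The members and lists were chosen with earlier results of these data known. A neuroblast marker of the original list is not reported here. The 4 motifs and 2 promoter windows were chosen after the members' promoter letters had been seen, and the results of all are given. Of the probes in the authors' table, 8354 carried 1 symbol, 150 several and 4184 none, and 3087 symbols were updated through RefSeq. Tested on simulated data with 200 probes changed by 2 log2 units, the fit recovered 89% for large against small tumors (32996 probes), 81.5% for small tumors against day 0 ganglia and 67% for day 14 against day 7 ganglia (12688 probes each). The number of arrays limits the precision. Alternatives in normalization, trend, filter, floor, covariates and left-out arrays were run.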

Additional observations from a re-analysis of the deposited data

How the results depend on the processing

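Of 875 values for single member probes under alternatives, over 55 results, 776 kept direction and side of the threshold, 62 lost the call and 11 gained one. The other 26, none called, took the opposite sign: 16 on leaving out arrays and 10 under another scaling or covariates. With no normalization, Ezh2 in very large minus small tumors was -0.09, and very large minus medium tumors was -0.06 for Setd1a and -0.38 for Ezh2. In large against small tumors, where 2 probes were called, centring arrays on medians gave 1, no normalization 0, no intensity trend 1, life span as a covariate 0 and muscle and fat covariates 0, and leaving out 1 tumor gave 1 to 2. In medium against small tumors, where 1 was called, those 5 settings each gave 0, and leaving out 1 tumor gave 0 to 1. In very large against small tumors, where 2 were called, centring gave 1, no normalization 0, life span 1 and muscle and fat 0, and leaving out 1 tumor gave 1 to 2. Normalizing over the authors' probes alone, chosen after seeing the data, gave 3 there, with Ezh2 added. Without day 0 ganglia 1 and 2, each comparison of ganglion stages gave 1 where 0 had been called; leaving out 1 array gave 0 to 1 for day 14 against day 0. For small tumors, 4 were called against day 0, 2 against day 7 and 5 against day 14. Calls moved in each of these comparisons when 1 array was left out, as given above for each probe. Leaving out a small tumor, or a day 7 or day 14 ganglion, left 1 array in its group. No count is given for those fits. Against day 14, quantile normalization over all probes gave 1 and no trend 3; against day 0, quantile normalization over all probes took the Sirt7 call. The cause of these changes was not tested. No paired analysis was possible because the labels give no replicate numbers shared by the groups. With 2 arrays per group at day 7, day 14 and in the tumors, the spread rests mostly on day 0. The Ezh2 E2F word and the Asxl2 E-box appeared in the longer promoter window alone.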
